A study of Mus musculus with 12 samples.

Results

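Acetylation of histone H4 at lysine 12 (H4K12ac) was compared between SAHA-treated and vehicle-treated aged mice in non-neuronal brain nuclei. The comparison rests on 4 of the 12 libraries of the series, chosen by their labels: 1 H4K12ac ChIP-seq library and 1 input library for SAHA, and the same for vehicle. ChIP-seq sequences the DNA that an antibody pulls down with the modified histone, and an input is the same kind of sonicated chromatin sequenced with no antibody. Both groups were wild-type C57B/6JRj mice of 20 months. The vehicle group drank water with 18 g/L cyclodextrin, and the SAHA group drank the same solution with 0.67 g/L SAHA added, by mouth for 4 weeks. Other libraries of the series are set beside these for comparison. They came from neuronal nuclei of 20-month mice with the same treatments, and from 3-month vehicle mice. The 3-month mice also had 18 g/L cyclodextrin for 4 weeks, with no SAHA. The file headers place the nuclei in CA1, a field of the hippocampus, and call this population glia. The profiles are averages over many genes, so no marker of glia or neurons could be read from them and the label could not be checked. With 1 library per side there is no replicate error and no test, and every difference below describes these libraries. The sources used here do not say how many animals went into a library or how the nuclei were separated.

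Acetyl groups on the tails of histone H4 neutralise positive charge on lysines, loosen the contact between histone and DNA and are read by bromodomain proteins. H4K12ac is written by lysine acetyltransferases and removed by histone deacetylases, and in most tissues it is found around the start sites of active genes, on the nucleosomes that flank the nucleosome-poor promoter. SAHA (vorinostat) is a hydroxamate that blocks the zinc-dependent deacetylases. Non-neuronal nuclei of the hippocampus come mainly from astrocytes, oligodendrocytes and their precursors, microglia and cells of blood vessels.

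Each library was a profile of mean signal at 4001 positions from -2000 to 2001 bp relative to the transcription start site (TSS), and all signals are deposited values times 1000. The ChIP divisors (the inverse of the smallest unit of signal, a stand-in for read depth) were 62800000 with SAHA and 52800000 with vehicle, and those of the inputs 65900000 and 78000000. Reads counted over 300 bp gave a counting error of 0.0897% to 0.120% for a mean within 500 bp of the TSS in these 4 libraries. The 95% counting intervals below cover this error only, and not the spread between animals, preparations or immunoprecipitations.

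The SAHA ChIP profile lay above the vehicle profile at every one of the 4001 positions (100%). The difference was smallest far upstream and largest just inside the gene. From -2000 to -1501 bp the ChIP signal was 5.67 with SAHA and 5.53 with vehicle, 2.54% higher with SAHA (95% counting interval 2.02% to 3.06%). From -1500 to -1001 bp it was 6.596 and 6.408, a difference of 2.92%. The first of these windows held the lowest ChIP signal of the profile, and SAHA was already above vehicle there. The inputs were nearly as far apart, 2.23% and 2.72% in these windows. Over own input the differences were 0.306% (interval -0.376% to 0.991%) and 0.196% (-0.457% to 0.853%), so neither was set apart from 0. From -1000 to -501 bp the signal was 8.86 and 8.50, or 4.25% higher. In the last 500 bp before the TSS it was 11.6 and 10.97, or 5.39% higher (interval 5.01% to 5.77%). In these windows of 500 bp the difference in percent was greater the nearer they lay to the TSS. In windows of 200 bp it was not so at every step, with 5.55% from -400 to -201 bp and 5.19% from -200 to -1 bp. The counting intervals of this pair overlapped.

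The first 500 bp of the transcribed side, where the first nucleosomes of the gene body sit, carried the most H4K12ac and the greatest difference. The ChIP signal there was 14.3 with SAHA and 13.4 with vehicle, 6.22% higher with SAHA (interval 5.88% to 6.57%). From 501 to 1000 bp it was 9.998 and 9.521, or 5.01% higher. Further into the gene the libraries drew closer again. The signal was 7.17 and 6.90 from 1001 to 1500 bp, 3.92% apart. It was 6.17 and 5.99 from 1501 to 2000 bp, 3.00% apart (interval 2.50% to 3.51%). In units of signal the difference was 0.837 in the first 500 bp downstream against 0.140 in the outermost 500 bp upstream.

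**Figure D1:**
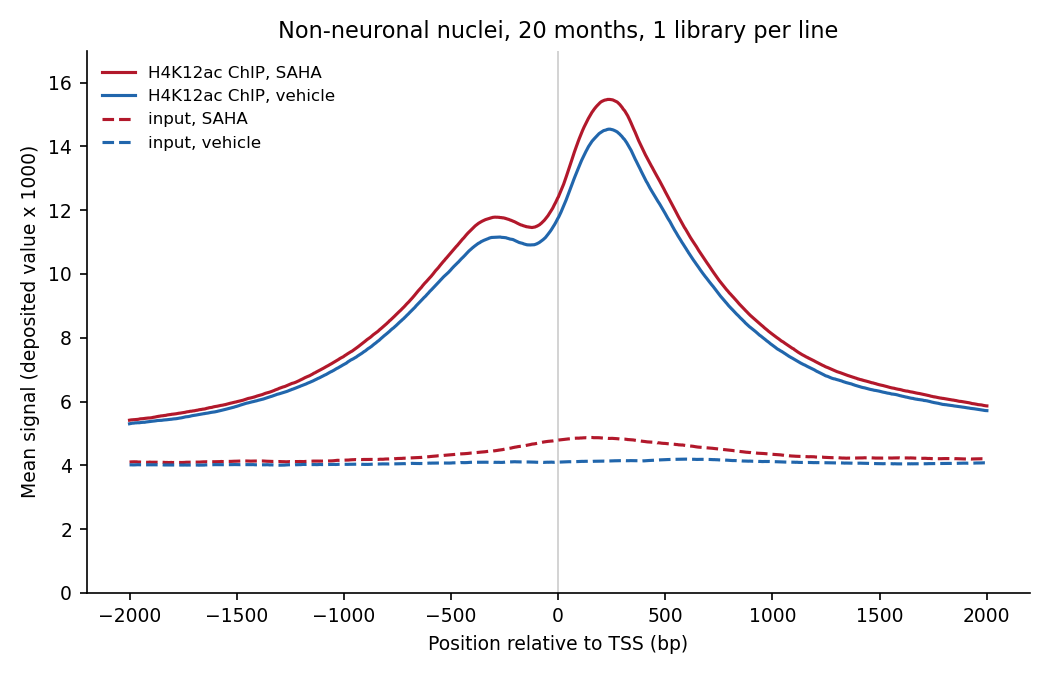
Mean signal (deposited value multiplied by 1000) against position relative to the TSS in bp, for the SAHA (red) and vehicle (blue) libraries of non-neuronal nuclei at 20 months. Solid lines are H4K12ac ChIP and dashed lines input, 1 library per line with no error bars; the SAHA ChIP maximum is 15.5 and the vehicle maximum 14.5, while the inputs reach 4.87 and 4.20.

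At single positions, the ChIP difference ran from 1.91% at -1974 bp to 6.62% at 203 bp, where the signal was 15.4 with SAHA and 14.5 with vehicle. The median over all positions was 4.04%. The difference itself had a high point on each side of the TSS. It reached 5.76% at -377 bp, was down to 5.01% at -122 bp and had its highest value at 203 bp. The standard error from counting of such a difference at 1 position near the TSS was 0.265 percentage points. The notch at -122 bp coincided with the lowest point of the SAHA profile between its own crests. Both were read from the same SAHA signal, so the match is no separate support for a notch. These positions were picked as extremes. The counting interval was 5.08% to 6.03% from -400 to -201 bp and 4.72% to 5.67% from -200 to -1 bp, and these overlapped. From 1 to 200 bp it was 5.79% to 6.67%, above that just before the TSS. The rise downstream was thus beyond counting error, but a notch below the upstream high point was not.

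The landmarks of the profile kept nearly the same places in both libraries. The main maximum was at 233 bp with SAHA (signal 15.5) and at 240 bp with vehicle (14.5), a height 6.41% greater with SAHA. The upstream maximum, on the shoulder before the promoter, was at -294 bp (11.8) and at -271 bp (11.2), 5.57% apart. The dip between that shoulder and the TSS was at -122 bp (11.5) with SAHA and at -130 bp (10.9) with vehicle, 5.03% apart. Of the 3 landmarks the downstream maximum differed most. The dip and the upstream maximum were closer to each other. With a standard error from counting of 0.265 percentage points at 1 position near the TSS, their order is uncertain. The steepest rise of the signal, after smoothing over 51 bp, was at 56 bp and 63 bp, and the steepest fall at 362 bp and 366 bp.

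The width of the H4K12ac domain was all but equal. Midway between flank and maximum, the SAHA profile spanned -500 to 663 bp and the vehicle profile -501 to 664 bp, or 1163 and 1165 bp. The flank is the outermost 10% of positions on each side, 400 on each. At a lower level, 25% of the way from flank to maximum, the widths were 1803 and 1809 bp. The height above the flank was 9.62 with SAHA and 8.85 with vehicle, 8.77% more with SAHA. In neuronal nuclei of the same age, the midway widths were 922 bp with SAHA and 1084 bp with vehicle. The non-neuronal library of 3-month vehicle mice had a width of 1131 bp.

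The balance of the sides was also close. The mean rise over the flank in the 500 bp upstream was 0.677 of that in the 500 bp downstream with SAHA and 0.680 with vehicle. The main maximum was 1.31 times the upstream maximum with SAHA and 1.30 times with vehicle. Positions within 500 bp of the TSS held 36.8% of the whole profile's signal with SAHA and 36.3% with vehicle.

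To see what was left once the overall level was set aside, each ChIP library was divided by its own flank. The flank signal was 5.85 with SAHA and 5.70 with vehicle, 2.75% higher with SAHA (interval 2.33% to 3.18%). Over its own flank, the SAHA signal within 500 bp was 2.21 and the vehicle signal 2.14, 3.02% apart. From 201 to 400 bp, the 200 bp window with the greatest value, it was 3.48%. From -2000 to -1801 bp, the window with the lowest, it was -0.451%. Part of the percent difference near the TSS, 5.85% before this division, was thus shared with the flank, and part was not.

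**Figure D2:**
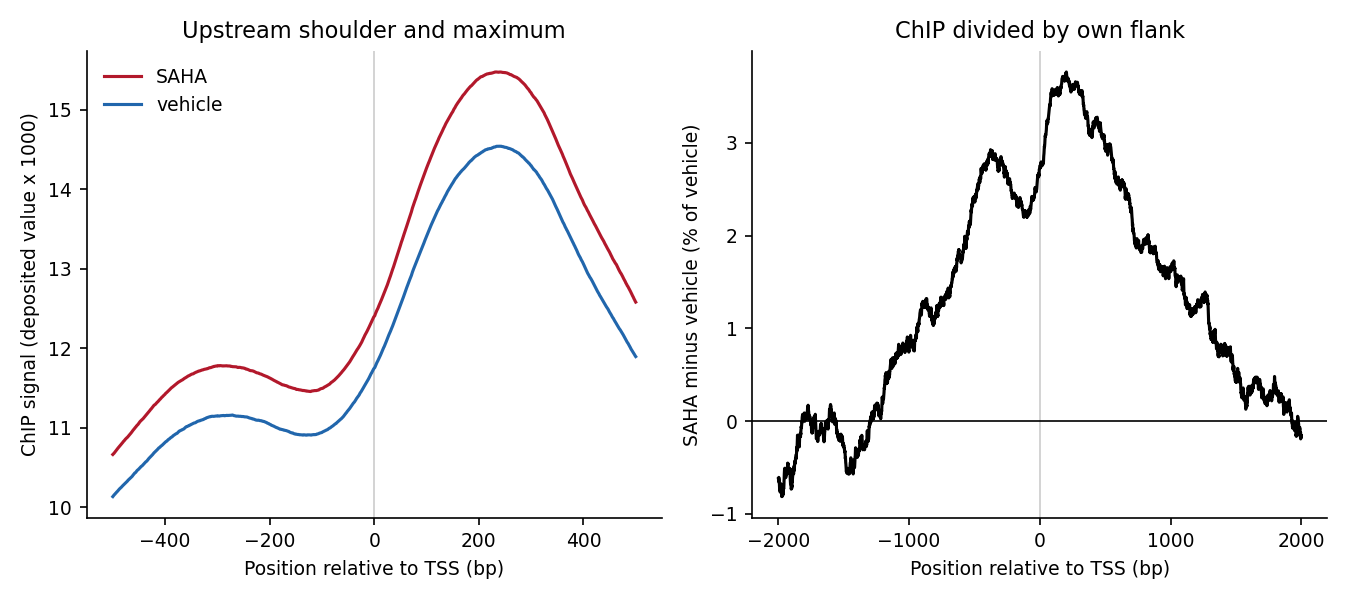
Left, ChIP signal (deposited value multiplied by 1000) within 500 bp of the TSS for SAHA (red) and vehicle (blue) in non-neuronal nuclei; the upstream maxima at -294 and -271 bp, the dips at -122 and -130 bp and the main maxima at 233 and 240 bp can be seen. Right, difference between the ChIP profiles in percent of vehicle after each was divided by its own flank, against position in bp; the line peaks at 3.76% at 203 bp and is lowest at -0.814% at -1974 bp.

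The side of the TSS was then set apart from the height of the signal, by reading the ChIP difference where the vehicle profile had the same level on both sides, over 50 bp on either side of that point. At a vehicle level of 7 (-1041 and 1194 bp) the SAHA signal was 3.56% higher upstream and 4.01% higher downstream. At a level of 9 (-662 and 796 bp) the values were 4.37% and 4.71%. At a level of 11 (-361 and 577 bp) they were 5.65% and 5.53%. At 6 of the 6 levels read, from 6 to 11, the counting intervals of the sides overlapped. From the lowest to the highest of these levels, the percent difference went from 2.33% to 5.65% upstream and from 3.03% to 5.53% downstream. On each side the higher levels lay nearer the TSS, so height and distance could not be told apart. No level above 11 was read, so the downstream crest was not covered.

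The inputs did not have the same profile, and they bear on every value divided by input. The SAHA input was higher than the vehicle input at all 4001 positions (100%), as the ChIP library was. In the outermost 500 bp upstream the inputs were 4.10 with SAHA and 4.01 with vehicle, 2.23% apart, close to the 2.54% of the ChIP libraries. In the first 500 bp downstream they were 4.81 and 4.13, 16.3% apart (interval 15.8% to 16.8%), against 6.22% for ChIP. The SAHA input had a crest of 4.87 at 155 bp, whereas the vehicle input stayed between 4.00 and 4.20 over the whole profile, with its highest point at 589 bp. The input difference was greatest at 158 bp, at 18.2%, where the inputs were 4.87 and 4.12. It had no notch upstream of the TSS like that of the ChIP difference, which was itself within counting error on its upstream side.

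The pair of inputs were the extremes of the 6 in the series. Within 500 bp of the TSS the SAHA input stood 12.4% above its own flank, the most of any, and the vehicle input 2.00%, the least. In units of signal, the inputs differed by 0.554 in that window and the ChIP libraries by 0.714. Whether the input rise is also present in the DNA from which the ChIP libraries were made was not tested.

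Division by own input turned the direction around the TSS and for some way into the gene. Around the TSS, within 500 bp, ChIP was 2.77 times its input with SAHA and 2.97 times with vehicle, which makes -6.71% (log2 -0.10, 95% counting interval -0.11 to -0.094). In the first 500 bp downstream the fold over input was 2.97 and 3.25, a difference of -8.63%. In the 500 bp upstream it was 2.55 and 2.68, a difference of -4.73%. From 501 to 1000 bp it was 2.22 and 2.29, a difference of -3.10% (interval -3.66% to -2.53%), where the ChIP difference was 5.01%. From -2000 to -1501 bp it was 1.38 and 1.38, a difference of 0.306% (interval -0.376% to 0.991%). The SAHA library had the higher fold at 25.1% of positions and the lower fold without a break from -726 to 1244 bp. That stretch was set by sign alone, and its ends were within counting error. The interval was -0.855% to 0.679% from -800 to -601 bp and -1.42% to 0.167% from 1001 to 1200 bp. Outside the stretch, it lay below 0 from 1401 to 1600 bp and from 1601 to 1800 bp.

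In windows of 200 bp, the counting interval of the difference in fold lay below 0 in 10 of 20 windows (50%) and above 0 in none (0%). The lowest value was -9.72% from 1 to 200 bp, and the highest 0.686% from -1200 to -1001 bp. The lowest value at a single position was at 158 bp, at -9.98%, the same position as the greatest input difference. Outside the unbroken stretch the difference in fold stayed between -1.62% and 0.976%. At equal vehicle ChIP level the difference in fold was lower downstream than upstream at each level read, with no counting interval computed for it. At a level of 6 it was -0.526% upstream and -0.943% downstream, and at a level of 7 it was 0.595% and -0.358%. At a level of 9 the difference in fold was -0.187% upstream and -2.79% downstream, and at a level of 11 it was -1.96% and -4.57%. The inputs differed there by 7.76% upstream and 10.6% downstream at the level of 11.

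**Figure D3:**
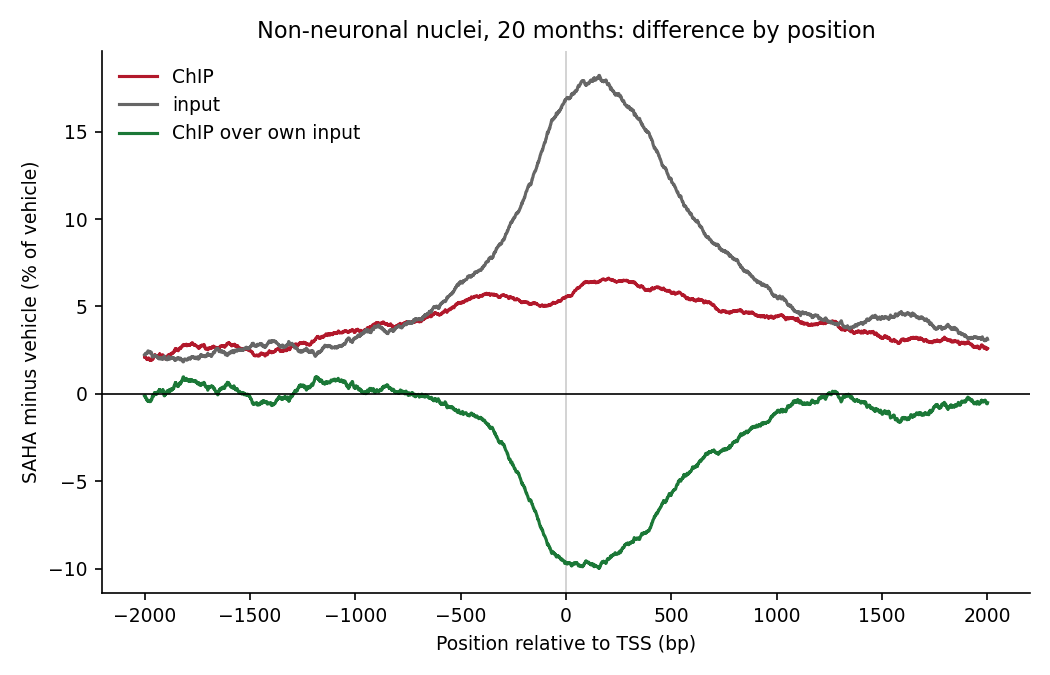
SAHA minus vehicle in percent of vehicle at each position relative to the TSS (bp) in non-neuronal nuclei at 20 months, for ChIP (red), input (grey) and ChIP over own input (green), from 1 library per side. The ChIP line stays above 0 with its highest point, 6.62%, at 203 bp, the input line reaches 18.2% at 158 bp, and the ratio is lowest there at -9.98%.

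Subtraction of input gave another picture. The ChIP signal above input within 500 bp of the TSS was 8.25 with SAHA and 8.09 with vehicle, 1.98% higher with SAHA. It was 4.19% higher from -1000 to -501 bp, 2.27% higher from -500 to -1 bp and 1.77% higher from 1 to 500 bp. The 200 bp window just before the TSS, from -200 to -1 bp, was the only one of the 20 below 0, at -0.105%. In that window the ChIP signal above input was nearly equal in the aged libraries. In the windows beside it, SAHA was 3.57% higher from -400 to -201 bp and 1.10% higher from 1 to 200 bp. No counting interval was computed for subtracted values. Subtraction takes the whole input signal as the background of the ChIP library, which was not tested.

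The same treatment in neuronal nuclei of 20-month mice gave a difference of another shape. There the SAHA library had a ChIP signal of 11.4 within 500 bp and the vehicle library 10.2, a value 11.8% higher (interval 11.5% to 12.1%), against 5.85% (5.58% to 6.12%) in non-neuronal nuclei. On the log2 scale the non-neuronal difference was 0.08 and the neuronal 0.16. From 1 to 200 bp the neuronal libraries differed by 16.5% and the non-neuronal ones by 6.23%. From -400 to -201 bp the populations were close, at 6.00% and 5.55%. In the windows beyond -400 bp upstream and 800 bp downstream the order was the other way, for example with 2.24% in neuronal and 4.56% in non-neuronal nuclei from 801 to 1000 bp.

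The neuronal SAHA library was higher at 51.1% of positions, and its windows of 200 bp lay beyond counting error above 0 in 9 of 20 (45%) and below 0 in 7 of 20 (35%). In non-neuronal nuclei 20 of 20 (100%) lay above 0. The SAHA difference in the flank was -1.05% for the neuronal libraries and 2.75% for the non-neuronal ones. Neither the difference between the populations nor its shape could be tested with 1 library per group.

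**Figure D4:**
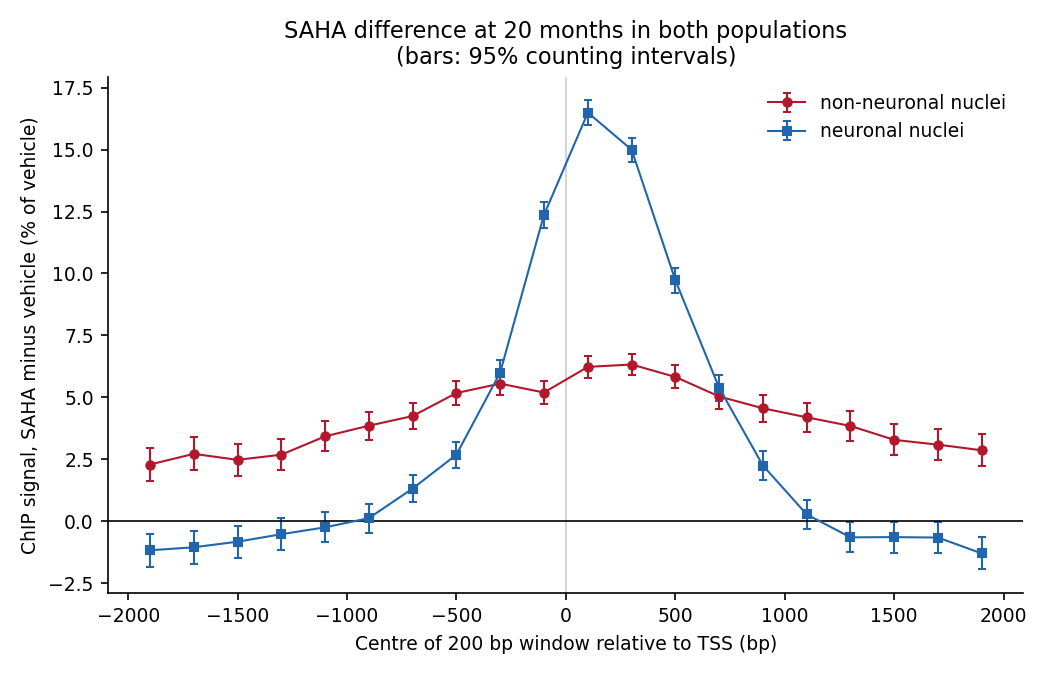
ChIP signal of SAHA minus vehicle in percent of vehicle at 20 months in windows of 200 bp, plotted at the centre of each window relative to the TSS (bp), for non-neuronal (red circles) and neuronal nuclei (blue squares). Bars are 95% counting intervals from 1 library per group; the neuronal values run from -1.30% to 16.5% and the non-neuronal ones from 2.29% to 6.32%.

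For scale, the non-neuronal library of 3-month vehicle mice is set beside the aged ones. Each of the 3 is 1 library, and both differences from the 3-month library below share that library. Averaged over 500 bp on either side of the TSS, the young library had a ChIP signal of 13.5, the aged vehicle library 12.2 and the aged SAHA library 12.9. The SAHA library lay between the others in ChIP signal, but not over own input, where the fold was 3.02 in the young, 2.97 in the aged vehicle and 2.77 in the aged SAHA library. In ChIP signal from -200 to -1 bp, the SAHA library was -5.58% from the 3-month library, the aged vehicle library being -10.2% from it. From 1801 to 2000 bp the values were -0.151% and -2.93%. The upstream dip had a depth below the upstream maximum of 0.861% in the young library, 2.26% in the aged vehicle library and 2.77% in the aged SAHA library. Relative to its own upstream maximum, the dip of the SAHA library thus had the largest value of the 3. These depths rest on single positions and no counting error was computed for them, so the order of the aged libraries is uncertain. The signal of the SAHA library at the dip, 11.5, lay between 12.1 in the young and 10.9 in the aged vehicle library.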

How the data were processed

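The deposited files hold a signal, 1 mean value per position from -2000 to 2001 bp relative to the TSS (4001 positions, position 0 absent), which the authors had normalized, per the file headers. CASAVA 1.8.2, Bowtie2 and the build mm10 are named in the submitters' processing notes. The sources used here do not give the scaling factor, the set of TSS or the treatment of duplicates.

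Source names gave the groups, and the sample number in the titles joined each ChIP library to its input. Signal was multiplied by 1000. Means over positions were compared as ratios; fold over input is the ChIP mean divided by the input mean over the same window. Steps between positions were whole multiples of 1 unit (tolerance 0.1) at 100% of positions, with the strongest negative autocorrelation at 300 bp, so a unit was taken as 1 read counted over 300 bp, which is an inference. Over-dispersion was 1.61 to 2.42 in the 4 libraries. Counting intervals use these values and are a lower limit. The recovery of unit, read length and difference was checked on data simulated under the same model of reads. The simulated over-dispersion was set below that of the ChIP libraries, and the check cannot show that the model holds here. No test was made. The features named were the windows of 500 bp, the extreme windows of 200 bp, maxima, minima and extreme positions. The reading at equal vehicle level, the notch and the widths at 25% were added after the profiles were seen. Members, windows and alternatives were chosen with earlier results of these data known. Gene lists could not be used, since the profiles hold no genes. Python 3.11.15, NumPy 2.4.6 and Matplotlib 3.10.9 were used.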

Additional observations from a re-analysis of the deposited data

Results flagged for a closer look

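The SAHA difference in ChIP over own input (500 bp on either side of the TSS) had opposite signs in the populations, a log2 of -0.10 in non-neuronal and 0.28 in neuronal nuclei at 20 months. The difference was not tested, with 1 library per group, and SAHA and vehicle inputs of non-neuronal nuclei were a log2 of 0.18 apart in that window. The neuronal inputs were a log2 of -0.12 apart, and for ChIP alone the neuronal difference was 0.16 and the non-neuronal one 0.08, so both values divided by input rest in part on the inputs.

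The ChIP signal from -2000 to -1501 bp also had opposite signs, 2.54% higher with SAHA in non-neuronal nuclei (95% counting interval 2.02% to 3.06%) and -1.08% in neuronal nuclei (-1.60% to -0.554%). The non-neuronal inputs were also 2.23% apart in that window, and the difference in ChIP over own input was 0.306% (interval -0.376% to 0.991%). From -2000 to -1601 bp the neuronal inputs were 4.015 with SAHA and 4.044 with vehicle. The inputs thus had the same signs as the ChIP libraries. The ChIP difference between the populations was not tested either.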

How the results depend on the processing

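An alternative value counts as moved when it leaves the 95% counting interval of the main value, a narrow scale. The ChIP difference within 500 bp, a log2 of 0.082, was above 0 in all 4 alternatives run. It was 0.075 within 1000 bp, 0.081 within 200 bp, 0.043 with each library divided by its own flank and 0.10 with the flank level of the own input subtracted. None of these 4 took out the input signal near the TSS, where the inputs were 13.5% apart within 500 bp. The difference in ChIP over own input, -0.10, was -0.061 within 1000 bp, -0.13 within 200 bp and -0.097 with ChIP and input divided by their own flanks. It reversed in 3 of 6 alternatives, to 0.028 with own input subtracted, 0.082 with 1 common input (the mean of the 6 inputs) and 0.20 with the neuronal inputs of the same age and treatment. These 3 differ from the main value in the use of the input alone. A common input nearly cancels and repeats ChIP alone. The neuronal inputs were a log2 of -0.12 apart within 500 bp, so division by them could only raise the ChIP difference. Of the 3, only the subtraction used the libraries' own inputs. The non-neuronal minus neuronal SAHA difference in ChIP, -0.079, was -0.038 within 1000 bp, -0.12 within 200 bp, -0.13 over own flank and -0.38 over own input. No library could be left out, with 1 per group.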
